A study of Mus musculus with 9 samples.

Results

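Activator protein 1 (AP-1) transcripts were followed in CD8+ T cells from B16F10 tumours, a transplantable mouse melanoma. The members were the 9 rows of the deposited expression table with the symbols Fos, Fosb, Fosl1, Fosl2, Jun, Junb, Jund, Atf3 and Batf, out of 23366 gene symbols. They were chosen by symbol, as members of the AP-1 family. The study sequenced 9 bulk libraries from C57BL/6 mice, 5 from wild type animals (WT) and 4 from animals lacking Il27ra, the receptor chain that binds interleukin 27 (IL27ra KO). All mice carried B16F10 tumours, and no treatment, time point or age is named in the labels. Neither the disrupted part of Il27ra, nor the cells that lacked it, nor the number of animals behind a library is given in the labels. The p-values therefore rest on the variation from library to library, part of which may be technical.

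AP-1 is a family of paired transcription factors with a basic region that holds DNA and a leucine zipper that joins the partners. FOS proteins (Fos, Fosb, Fosl1, Fosl2) must pair with JUN proteins (Jun, Junb, Jund), whereas JUN proteins can also pair with each other, and ATF3 and BATF join them as further partners. Fos, Fosb, Jun, Junb and Atf3 are immediate-early or stress genes, transcribed within minutes of a signal from the antigen receptor or of cell stress. BATF lacks a domain that activates transcription, binds with JUN proteins and IRF4 or IRF8, and is a known regulator of effector and exhausted CD8+ T cells.

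Depth and purity of the libraries bear on every value below. The values are TMM-normalized FPKM, fragments scaled to transcript length and library size. The spacing of low values implied 1740000 to 4100000 fragments in a WT library and 2530000 to 3830000 in an IL27ra KO library. Because the spacing was taken after TMM normalization, these and the fragment numbers below are rough and need not equal the fragments sequenced. Il27ra itself had 5.14 to 25.7 FPKM in WT and 4.09 to 7.80 FPKM in IL27ra KO and did not pass the test (limma, adjusted p = 0.0996). The library labelled WT replicate 2, at 5.14 FPKM, lay inside the IL27ra KO range. Without it the Il27ra difference went from -1.10 to -1.42 log2 units and passed (limma, adjusted p = 0.0035), as it did with weights for library quality (adjusted p = 0.0012). CD8 T cell identity genes were present in every library, the 15 genes summing to 1142 to 1791 FPKM in WT and 527 to 1392 FPKM in IL27ra KO, and Cd4 was near 0. Of 20 macrophage and monocyte markers, 19 were tested and all 19 were higher in IL27ra KO. Their summed level was 75.3 to 353 FPKM in WT and 489 to 1668 FPKM in IL27ra KO, where replicate 4 had the lowest sum, and 0 of the 20 markers were at 0 throughout a group. Melanoma markers, 10 genes, summed to 383 to 1241 FPKM in WT and 576 to 1358 FPKM in IL27ra KO, with 10 of 10 differences above 0 (median 0.54 log2 units) and 0 called (limma; 2 at an unadjusted p under 0.05), and their part in the results was not tested. The macrophage marker level did not overlap between the genotypes, so its part in any difference below cannot be told apart from that of the genotype. In bulk RNA, fewer cells of a type and less RNA per cell cannot be told apart either.

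The immediate-early members Fos and Fosb and the stress member Atf3 were higher in IL27ra KO libraries, and 0 of the members were lower past the threshold. Fos was 2.20 times, Fosb 1.73 times and Atf3 4.10 times as high by the ratio of mean FPKM. Of 8 members that reached a mean of 1 FPKM and were tested, 3 rose and 5 did not pass (limma on log2(FPKM + 1), adjusted p under 0.05 over 10374 genes). Over all genes tested, 3.13% were called higher, 1.11% lower and 4.24% in either direction. The count of 3 became 0 without IL27ra KO replicate 1 or 3, and 2 without IL27ra KO replicate 2 or WT replicate 3 or 5. It was 3 without IL27ra KO replicate 4 and 4, with Jun added, without the library labelled WT replicate 2. Among the 8 members, 7 differences were above 0 and that of Batf was below 0, with a median of 0.45 log2 units against 0.02 for all genes tested.

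**Figure D1:**
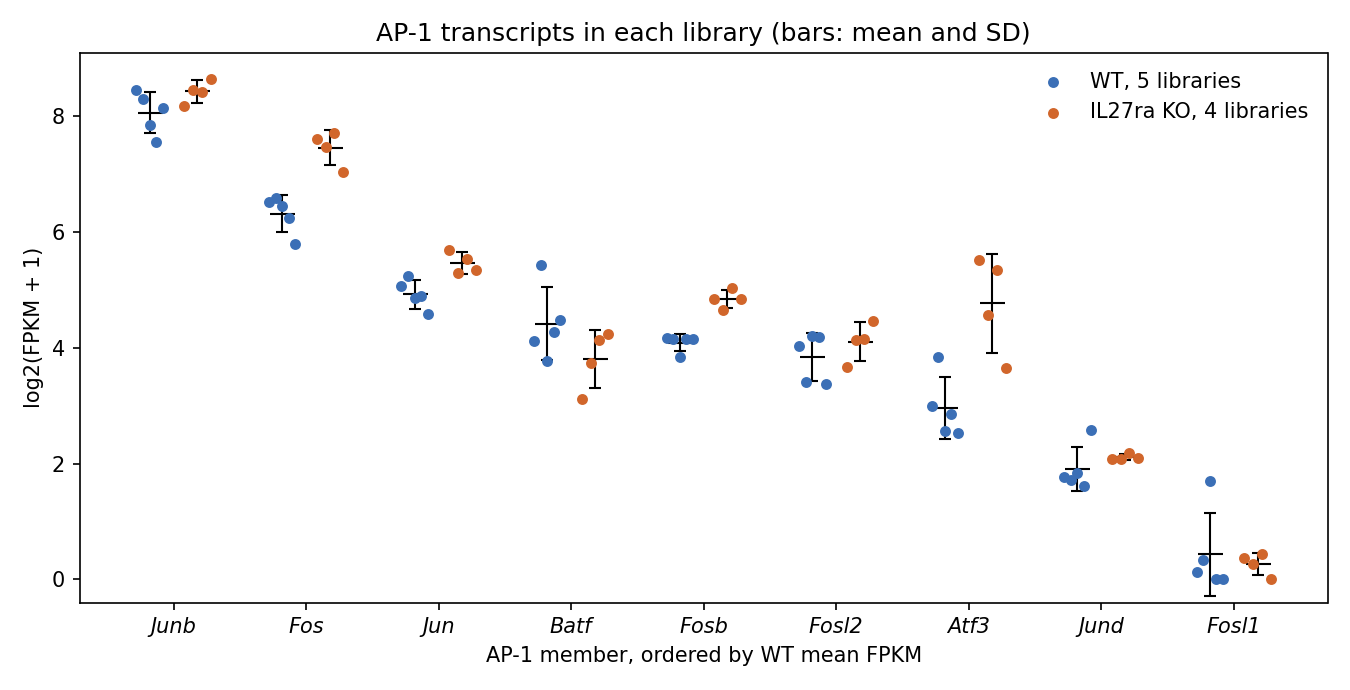
Level of each AP-1 member, as log2(FPKM + 1), in 5 WT libraries (blue) and 4 IL27ra KO libraries (orange). Points are libraries and bars give the mean and SD on that scale. The points of Fos, Fosb and Jun do not overlap between the groups, whereas those of the other 6 members do.

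Fos encodes c-FOS, the founding member of the FOS proteins. Its level was 90.9, 95.9, 86.7, 74.9 and 54.2 FPKM in WT replicates 1 to 5 and 195, 177, 208 and 130 FPKM in IL27ra KO replicates 1 to 4. All 4 IL27ra KO libraries lay above all 5 WT libraries. The lowest IL27ra KO library, replicate 4, had its group's least macrophage and melanoma marker RNA and most CD8 T cell identity RNA. The means were 80.5 ± 16.6 (SD, n = 5) and 178 ± 34.2 FPKM (SD, n = 4), a difference of 1.14 log2 units (SE 0.23; limma, adjusted p = 0.0110). The adjusted p was 0.0520 without IL27ra KO replicate 1 and 0.0639 without replicate 3, at differences of 1.08 and 1.05 log2 units.

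Fosb encodes FosB, whose gene also yields a truncated, long-lived form that a gene-level value does not separate. Its level was 17.1, 16.8, 13.3, 16.7 and 16.8 FPKM in WT replicates 1 to 5 and 27.8, 24.3, 31.7 and 27.7 FPKM in IL27ra KO replicates 1 to 4. The groups were tight and did not overlap, and IL27ra KO replicate 4 lay in the middle of its group. The difference was 0.75 log2 units (means 16.1 ± 1.59 and 27.9 ± 3.03 FPKM, SD, n = 5 and n = 4; SE 0.17; limma, adjusted p = 0.0242). It kept between 0.69 and 0.81 log2 units when any 1 library was left out. The call was lost in 5 of those 9 fits, with the highest adjusted p at 0.129 without IL27ra KO replicate 3.

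Atf3 encodes a stress-induced factor that pairs with JUN proteins and can repress inflammatory genes. Its level was 7.01, 13.4, 4.91, 6.26 and 4.79 FPKM in WT replicates 1 to 5 and 44.9, 22.8, 39.8 and 11.5 FPKM in IL27ra KO replicates 1 to 4. IL27ra KO replicates 1 to 3 were above every WT library, whereas replicate 4 fell below the library labelled WT replicate 2, so the groups overlapped. The means were 7.27 ± 3.54 (SD, n = 5) and 29.8 ± 15.4 FPKM (SD, n = 4), a difference of 1.81 log2 units (SE 0.37; limma, adjusted p = 0.0117). Without IL27ra KO replicate 4 it was 2.19, and without replicate 1 or 3 it was 1.56 or 1.62 and did not pass (adjusted p = 0.0509 and 0.0559).

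Batf was the tested member with a lower mean in IL27ra KO. Its level was 16.3, 42.4, 12.6, 18.4 and 21.5 FPKM in WT replicates 1 to 5 and 7.73, 12.3, 16.5 and 17.8 FPKM in IL27ra KO replicates 1 to 4. The groups overlapped between 12.6 and 17.8 FPKM, and the library labelled WT replicate 2 stood highest. The difference of -0.61 log2 units (means 22.2 ± 11.7 and 13.6 ± 4.57 FPKM, SD, n = 5 and n = 4; SE 0.32) did not pass (limma, adjusted p = 0.409). It was -0.36 without the library labelled WT replicate 2. With libraries rescaled to the same total or to CD8 T cell identity genes, the Batf difference was -0.30 or -0.03 (limma, adjusted p = 0.588 and 0.935).

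The promoters of the 3 members that rose and of Batf, the member with the opposite sign, are shown to set the sequences of genes that rose together beside one that did not. RefSeq's promoter table (GRCm38.p6, a later build than the mm9 named for the expression values) held 8 of the 9 members. Each line gives the 250 bases before the annotated start of the RNA, 5′ to 3′ on the gene's strand, with matches to the searched motifs in capitals.
Fos, chr12:85473640-85473889, plus strand: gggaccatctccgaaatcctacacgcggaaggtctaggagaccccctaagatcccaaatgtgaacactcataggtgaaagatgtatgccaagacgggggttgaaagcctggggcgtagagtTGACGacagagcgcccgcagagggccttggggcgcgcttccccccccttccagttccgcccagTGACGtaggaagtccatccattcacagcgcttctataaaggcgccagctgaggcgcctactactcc
Fosb, chr7:19310046-19310295, minus strand: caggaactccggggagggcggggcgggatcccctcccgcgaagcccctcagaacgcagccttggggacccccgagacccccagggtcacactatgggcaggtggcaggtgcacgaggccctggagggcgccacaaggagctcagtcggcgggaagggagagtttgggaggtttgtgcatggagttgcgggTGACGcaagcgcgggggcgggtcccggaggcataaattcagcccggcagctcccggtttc
Atf3, chr1:191183334-191183583, minus strand: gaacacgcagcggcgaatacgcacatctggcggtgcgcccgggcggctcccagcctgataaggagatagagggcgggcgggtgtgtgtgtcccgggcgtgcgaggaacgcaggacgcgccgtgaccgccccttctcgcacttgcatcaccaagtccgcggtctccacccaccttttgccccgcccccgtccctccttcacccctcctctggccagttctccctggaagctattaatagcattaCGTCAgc
Batf, chr12:85686470-85686719, plus strand: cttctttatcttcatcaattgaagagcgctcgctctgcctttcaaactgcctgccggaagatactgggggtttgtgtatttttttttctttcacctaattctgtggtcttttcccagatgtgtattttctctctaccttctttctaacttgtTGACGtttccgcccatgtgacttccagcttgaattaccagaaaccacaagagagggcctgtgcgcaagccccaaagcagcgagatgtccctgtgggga
The motifs searched on both strands were the AP-1 site TGANTCA, the ATF and AP-1 spacing TGANNTCA, the CArG box of serum response factor, the STAT site TTCNNNGAA, and TGACG, the core shared by sites of ATF and CREB proteins, which was added after these sequences had been read. All capitals in the 4 lines are TGACG or, in Atf3, its reverse complement CGTCA, 7 to 3 bases before the start. Fos held 2 copies, the nearer one 66 to 62 bases before the start, and Fosb and Batf held 1 each. Of the 8 members 5 held TGACG, Junb among them, against 17.8% of 32851 promoter windows of the same length. TGANNTCA was found in Jun, as TGACATCA 45 to 38 bases before the start, and in Jund, 2 of 8 members against 11.9% of windows. TGANTCA, the CArG box and TTCNNNGAA were in 0 of the 8 windows and in 6.75%, 1.47% and 7.02% of all windows, and sites farther from the start were not searched.

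The JUN proteins are the obligate partners of FOS. Jun, which encodes c-JUN, had 32.6, 37.0, 27.9, 28.9 and 22.9 FPKM in WT replicates 1 to 5 and 50.8, 38.2, 45.5 and 39.6 FPKM in IL27ra KO replicates 1 to 4. Every IL27ra KO library was above every WT library, by a narrow margin between IL27ra KO replicate 2 and the library labelled WT replicate 2. The difference of 0.54 log2 units (means 29.9 ± 5.29 and 43.5 ± 5.79 FPKM, SD, n = 5 and n = 4; SE 0.19) did not pass (limma, adjusted p = 0.177), and without that WT library it was 0.62 and passed (adjusted p = 0.0472). Of the 8 tested members 3, Fos, Fosb and Jun, had groups that did not overlap, against 6.73% of all genes tested, 4.26% higher and 2.47% lower.

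Junb, which encodes the JUN protein that often restrains c-JUN, was the member with the highest level in every library. It had 352, 313, 230, 188 and 284 FPKM in WT replicates 1 to 5 and 290, 352, 344 and 400 FPKM in IL27ra KO replicates 1 to 4. The ranges overlapped, and the difference of 0.37 log2 units (SE 0.23) did not pass (limma, adjusted p = 0.526). Jund, which encodes a JUN protein found in resting cells, was low, with 2.07 to 4.97 FPKM in WT and 3.24 to 3.55 FPKM in IL27ra KO. By the estimated depth and a transcript of 1668 bases these are 7.5 to 34.0 fragments in a WT and 15.0 to 20.7 in an IL27ra KO library, and the difference of 0.21 log2 units (SE 0.22) did not pass (limma, adjusted p = 0.729).

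The FOS-related antigens Fosl2 and Fosl1 were not called. Fosl2, which encodes FRA-2, had 15.3, 9.69, 17.4, 17.3 and 9.39 FPKM in WT replicates 1 to 5 and 11.7, 16.6, 16.8 and 21.2 FPKM in IL27ra KO replicates 1 to 4. The groups overlapped, and the difference of 0.26 log2 units (SE 0.24) did not pass (limma, adjusted p = 0.691). Fosl1, which encodes FRA-1, had a mean under 1 FPKM and was not tested. Its level was 0.09, 0.26, 2.25, 0 and 0 FPKM in WT replicates 1 to 5 and 0.30, 0.20, 0.35 and 0 FPKM in IL27ra KO replicates 1 to 4. These are about 7.3 fragments in WT replicate 3 and at most 2.1 in any other library, so a difference between levels this low was not detectable at this depth.

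**Figure D2:**
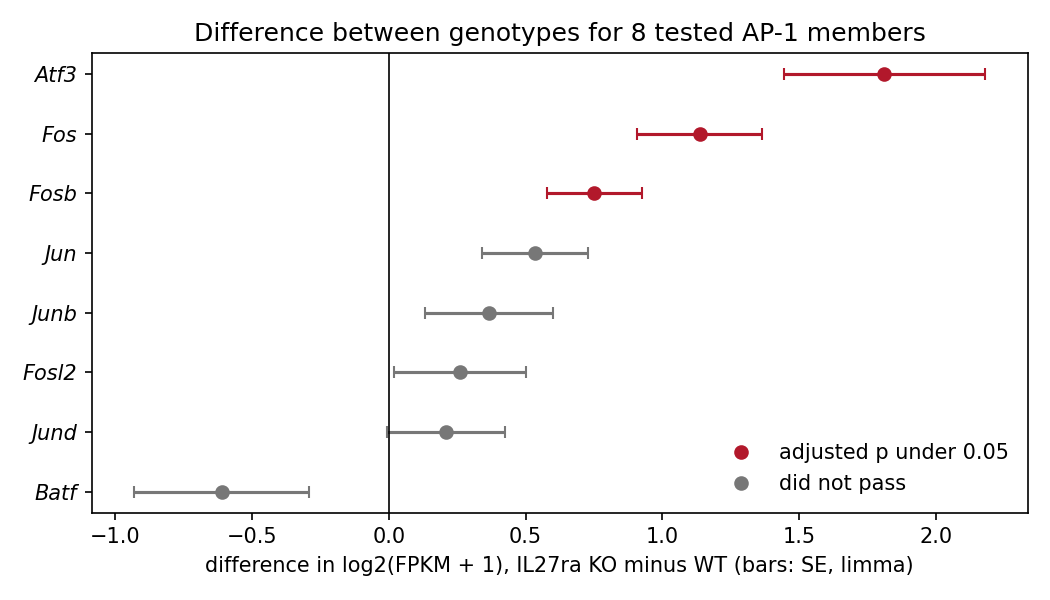
Difference in log2(FPKM + 1), IL27ra KO minus WT, for the 8 tested AP-1 members, with bars of 1 SE from limma. Atf3, Fos and Fosb (red) passed at an adjusted p under 0.05, and Batf is the member below 0.

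Compared per unit of length, the order of the members was led by the same genes in both genotypes. Junb, Fos and Jun held the top 3 places by mean FPKM in WT and in IL27ra KO, and the ranges of Junb and Fos, and of Fos and Jun, did not overlap within either group. In WT the next places were Batf (22.2 FPKM), Fosb (16.1), Fosl2 (13.8), Atf3 (7.27) and Jund (2.87), and the ranges of each of these neighbours, and of Jun and Batf, overlapped. In IL27ra KO Atf3 was in place 4 (29.8 FPKM) and Batf in place 7 (13.6 FPKM), where they held places 7 and 4 in WT. Atf3 was above Fosb, the next in that order, in 2 of 4 libraries, so these 2 do not differ beyond their spread, whereas Batf was below Fosl2 in 4 of 4 libraries with ranges that overlapped.

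Ratios between members of a library do not depend on how libraries are scaled. Fos was 2.37 to 3.10 times as high as Jun in WT and 3.29 to 4.64 times in IL27ra KO, so the ratios did not overlap. The ratio of Fos to Batf was 2.26 to 6.87 in WT and 7.29 to 25.3 in IL27ra KO, and that of Junb to Batf 7.37 to 21.6 and 20.8 to 37.5. The ratio to Batf was thus apart between the groups for Fos and overlapped for Junb. These ratios were chosen after the values had been seen and were not tested.

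Junb made up 60.8% ± 5.99 of the summed FPKM of the 9 members in WT (SD, n = 5) and 52.6% ± 6.88 in IL27ra KO (SD, n = 4). Fos made up 13.0% to 21.8% in WT and 19.9% to 30.9% in IL27ra KO, with replicate 4 at 19.9% inside the WT range. Batf made up 3.05% to 7.99% in WT and 1.22% to 2.74% in IL27ra KO, and these ranges did not overlap. The summed FPKM was itself higher in IL27ra KO, 631 to 706 against 353 to 533 in WT. A share can thus fall without a fall in level, and the Batf level overlapped between the groups and did not pass. Atf3 reached 7.12%, 3.53% and 5.64% in IL27ra KO replicates 1 to 3 and 1.77% in replicate 4, where WT libraries had 1.15% to 2.52%. By makeup, IL27ra KO replicate 4 was therefore within the WT range for Fos, Junb and Atf3 and below it for Batf.

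**Figure D3:**
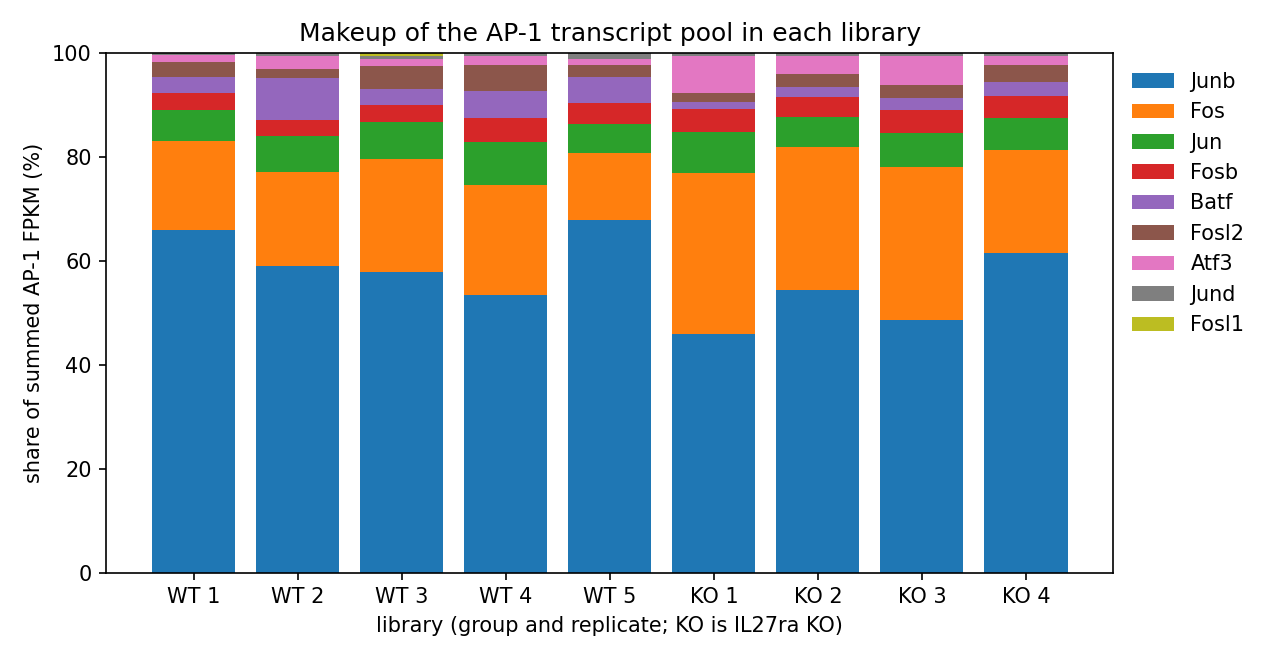
Share of each member in the summed AP-1 FPKM of a library, in percent, for WT replicates 1 to 5 and IL27ra KO (KO) replicates 1 to 4. Junb is the largest share in all 9 libraries, and the Fos share runs from 13.0% in WT replicate 5 to 30.9% in IL27ra KO replicate 1.

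The members are set here beside the macrophage marker level of the same libraries. The mean log2 level of the 20 markers was 1.09, 2.54, 1.14, 1.91 and 2.36 in WT replicates 1 to 5 and 4.79, 4.59, 4.99 and 3.51 in IL27ra KO replicates 1 to 4. Within IL27ra KO, the library with the lowest marker level, replicate 4, had the lowest Fos and Atf3 and the highest Junb, Fosl2 and Batf. It also had the highest CD8 T cell identity sum of that group, 1392 FPKM against at most 749 FPKM in the others. Its melanoma and dendritic cell marker sums, 576 and 514 FPKM, were the lowest of the group. Replicate 4 thus stood apart in more than macrophage RNA, and the part of each cell type was not tested. Fosb rose with the marker level over IL27ra KO replicates 2, 1 and 3, at 24.3, 27.8 and 31.7 FPKM. In replicate 4, with the lowest marker level, it was 27.7 FPKM. In WT replicates 1, 2, 4 and 5, with marker levels from 1.09 to 2.54, Fosb was 16.7 to 17.1 FPKM. In WT replicate 3, at a marker level of 1.14, it was 13.3 FPKM. Within WT, the library labelled replicate 2 had the highest marker level and the highest Fos, Atf3, Jun and Batf, whereas replicate 5, next in marker level, had the lowest Fos, Atf3 and Jun. With the marker level as a covariate, which runs with the genotype, the differences were 0.92 for Fos (SE 0.56), 0.52 for Fosb (SE 0.42) and -0.09 for Atf3 (SE 0.71), and 0 members passed (limma, adjusted p = 0.577, 0.656 and 0.970). The covariate also moved Fosl2 from 0.26 to 1.43 (SE 0.48, adjusted p = 0.333) and Batf from -0.61 to -1.43 (SE 0.76, adjusted p = 0.515).

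**Figure D4:**
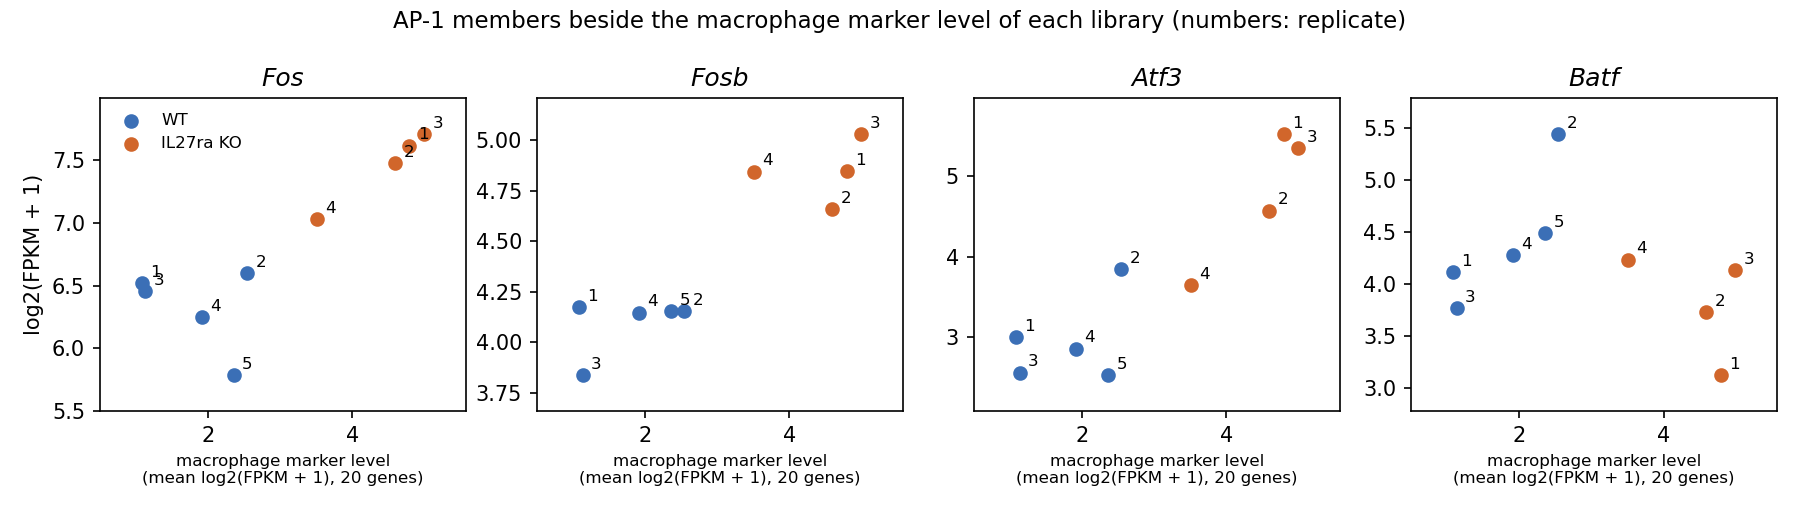
Level of Fos, Fosb, Atf3 and Batf in each library, as log2(FPKM + 1), against the mean log2(FPKM + 1) of 20 macrophage and monocyte markers. Numbers are replicates, and all 4 IL27ra KO libraries (orange) have a higher marker level than all 5 WT libraries (blue), replicate 4 being the nearest to WT.

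Genes whose profile over the 9 libraries lay nearest to each member were sought among 5721 others that averaged 5 FPKM or more. The measure was the root-mean-square difference of log2 levels after each gene was centred on its mean. Nearest to Fos were Anxa1, Zfp36 and Ctsz, at 0.24, 0.24 and 0.25 log2 units, where Fos itself varied by 0.63. Nearest to Fosb were Il10rb, Slc15a4 and 4632428N05Rik at 0.12 to 0.14, and nearest to Atf3 were Tmem176b, Ms4a6c and Ifitm2 at 0.27 to 0.31, where Atf3 varied by 1.09. Nearest to Batf were D19Ertd737e, Psme1 and Myl12a, at 0.17 to 0.23.

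NFAT, IRF, ETS and RUNX factors bind DNA together with AP-1 in T cells. Of 8 partner factors tested, 2 were lower and 6 did not pass (limma, adjusted p under 0.05; median -0.08 log2 units). Nfatc1, which encodes the calcium-regulated factor NFAT2 that shares composite sites with FOS and JUN, fell by 0.94 log2 units, from 23.9 ± 4.65 (SD, n = 5) to 12.2 ± 3.72 FPKM (SD, n = 4; limma, adjusted p = 0.0266). Its 5 WT values of 18.3 to 30.0 FPKM lay above the 4 IL27ra KO values of 9.44 to 17.7 FPKM. Irf8, a partner of BATF, fell by 1.69 log2 units, from 18.7 ± 13.4 to 4.38 ± 2.21 FPKM (adjusted p = 0.0468). The Irf8 groups overlapped. Of the 9 fits without 1 library, 7 ended the Irf8 call (all but those without WT replicate 3 or 4; highest adjusted p = 0.135). The Nfatc1 call ended in 5, those without IL27ra KO replicate 1, 2 or 3 and those without WT replicate 3 or 5 (adjusted p up to 0.116). With libraries scaled to T cell identity genes neither passed (-0.36 for Nfatc1 and -1.11 for Irf8, adjusted p = 0.354 and 0.103). Irf4, the other partner of BATF, had 6.53 ± 1.20 and 6.75 ± 2.72 FPKM and did not pass (adjusted p = 0.996).

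Among 27 other factors with a basic leucine zipper, 20 were tested, 1 rose and 19 did not pass (median 0.18 log2 units). Maf, which encodes c-MAF, had 0.71 to 1.34 FPKM in WT and 5.64, 4.68, 9.12 and 1.98 FPKM in IL27ra KO replicates 1 to 4 (log2 difference 1.54, SE 0.29; limma, adjusted p = 0.0081). Within IL27ra KO it was lowest in replicate 4. Batf3, the relative of Batf that a subset of conventional dendritic cells requires, was too low to be tested and is named after its values were seen. It was listed at 0 in 4 of 5 WT libraries and 0.34 FPKM in replicate 5, against 1.82, 2.06, 0.55 and 0.81 FPKM in IL27ra KO replicates 1 to 4. Dendritic cell markers, 12 genes, summed to 108 to 592 FPKM in WT and 514 to 2009 FPKM in IL27ra KO. Of these, 8 were tested, 5 rose and 3 did not pass (limma, adjusted p under 0.05). The highest means in IL27ra KO were those of Cd74, H2-Ab1, H2-Aa and H2-Eb1, genes of MHC class II presentation. Ccr7, Zbtb46, Xcr1 and Clec9a averaged 91.0, 1.38, 0.95 and 0.036 FPKM in WT and 94.6, 1.02, 0.71 and 0.045 FPKM in IL27ra KO. The part of dendritic cells in the Batf3 values was not tested.

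Upstream of AP-1, mitogen-activated protein kinases switch on FOS and JUN genes and phosphorylate their products. Of 32 genes of the kinase cascade that were tested, 0 passed (limma; 6 at an unadjusted p under 0.05, which 15.1% of all genes tested had), with a median of 0.11 log2 units. Of 5 genes of serum response factor and its partners, which bind the FOS promoter, 0 passed as well (limma; 1 at an unadjusted p under 0.05, against the same 15.1%). Their median was 0.03 log2 units, close to that of all genes tested.

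Other immediate-early genes, which the same signals induce, numbered 20 tested, of which 2 rose, 1 fell and 17 did not pass, with a median of 0.50 log2 units and 10 at an unadjusted p under 0.05, against 15.1% of all genes tested. With libraries scaled to T cell identity genes 8 were higher and 0 lower, and with the same total 4 and 0. Over all 10374 genes tested, these scalings called 713 higher and 50 lower, and 525 and 65. They put the median of all genes at 0.53 and 0.29 log2 units, so part of this shift was general. Zfp36, which encodes tristetraprolin, a protein that destabilizes inflammatory messenger RNAs, had 26.8 to 37.4 FPKM in WT and 87.0, 64.3, 70.6 and 67.7 FPKM in IL27ra KO replicates 1 to 4. All IL27ra KO libraries were well above WT, replicate 4 included (log2 difference 1.15, SE 0.19; limma, adjusted p = 0.0031). Klf4 rose from 2.24 ± 1.12 (SD, n = 5) to 5.04 ± 1.10 FPKM (SD, n = 4; adjusted p = 0.0458), a call that 7 of the 9 fits without 1 library ended, all but those without IL27ra KO replicate 4 or WT replicate 2 (adjusted p up to 0.173). Nr4a2, an orphan nuclear receptor induced through the antigen receptor, went the other way, from 12.8 to 33.6 FPKM in WT down to 6.29 to 10.4 FPKM in IL27ra KO (-1.27, SE 0.26; adjusted p = 0.0123). Nr4a2 did not pass in 5 of 20 alternative fits (limma, highest adjusted p = 0.405). These included the fit without IL27ra KO replicate 1 (adjusted p = 0.0584) and that with libraries scaled to T cell identity genes (-0.70, adjusted p = 0.133).

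T cell genes with described AP-1 or BATF sites and AP-1 target genes of other cells had medians of opposite sign. Of 10 such T cell genes tested, 3 fell and 7 did not pass, with a median of -0.87 log2 units. The 15 CD8 T cell identity genes had a median of -0.72, with 14 below 0 and 2 called lower, and their part in this list's values was not tested. Pdcd1, which encodes PD-1, Ctla4 and Prdm1, which encodes Blimp-1, fell by 3.36, 1.78 and 1.30 log2 units (limma, adjusted p = 0.00048, 0.0025 and 0.0159). Prdm1 did not pass in 5 of 20 alternative fits (limma, highest adjusted p = 0.463). These included the fit without IL27ra KO replicate 1 (adjusted p = 0.0710) and that with libraries scaled to T cell identity genes (-0.78, adjusted p = 0.123). Pdcd1 and Ctla4 each did not pass in 1 of the 20 (limma, adjusted p = 0.200 and 0.237). Of 9 targets known from other cells, 4 rose and 5 did not pass, with a median of 0.86 log2 units. The chemokine gene Cxcl2, the cytokine gene Il1b, Plaur and Plau, which encode the urokinase receptor and urokinase, rose by 3.56, 2.89, 1.80 and 1.44 log2 units (limma, adjusted p = 0.0040, 0.0139, 0.0086 and 0.0350). Myeloid cells make all 4, and their part in these values was not tested. Within IL27ra KO, replicate 4 had the lowest Cxcl2, Il1b and Plaur, whereas Plau was lowest in replicate 2 (1.87 FPKM, against 3.69 FPKM in replicate 4). The Il1b call ended without IL27ra KO replicate 3 (adjusted p = 0.0601), and that of Plau in 6 of the 9 fits without 1 library, all but those without IL27ra KO replicate 2 or 4 or WT replicate 2 (adjusted p up to 0.0945). Both lists were chosen with earlier results of these data known.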

How the data were processed

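The authors deposited RSEM FPKM per gene, normalized by TMM, per the labels, for bulk CD8+ T cell RNA copied by an adaptation of SMART-Seq 2. Without molecular identifiers, PCR copies enter the fragments. The submitters' processing notes name TopHat, RSEM, DESeq and mm9, without versions or roles. For strand and layout, the sources used here give nothing. All 9 columns were mapped by title, with 0 columns of other samples.

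The values are not counts, so IL27ra KO minus WT was fitted on log2(FPKM + 1) by limma 3.58.1 (R 4.3.3; lmFit, eBayes with trend) over the 10374 genes averaging 1 FPKM or more, calling adjusted p (Benjamini-Hochberg) under 0.05. Fold differences on this scale understate the change of low genes. Depth was estimated from the spacing of low values in 2117 single-transcript genes (GENCODE M21 lengths, another build). Of these values 63.3% to 66.5% lay within 0.1 of a whole multiple, against 20% if evenly spread, too few to recover counts. Rn45s, a ribosomal RNA precursor, took 53.8% and 50.8% of summed FPKM in WT replicates 3 and 4, 23.9% to 30.0% in the other WT libraries and 25.2% to 29.3% in IL27ra KO. Rn45s counts toward the total when libraries are rescaled to the same total, and its part in those values was not tested.

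The members and lists were chosen with earlier results of these data known. Named genes were the members, Il27ra, up to 4 passing genes of each list by smallest p, and the 3 nearest profiles of each member of at least 5 FPKM. Others are named after their values were seen, and not every gene this rule covers is reported here. The fit was tested on simulated data, where it called 49% of 200 genes changed by 1 log2 unit and 97% of those changed by 2. Smaller changes, such as the differences of the members that did not pass, were not simulated. Alternatives were other pseudocounts, filters, scalings and fits, the replicate number as a block, a macrophage covariate and leaving out each library.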

Additional observations from a re-analysis of the deposited data

Results flagged for a closer look

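Among 58 sets of library values checked, 5 had a library far from the others of its group, where chance gives about 1 in 20. Fosb was 13.3 FPKM in WT replicate 3, below 16.7 to 17.1 in the other WT libraries. Fosl1 was 2.25 FPKM in the same library, against at most 0.26 FPKM elsewhere in WT, and this library had the lowest estimated depth, 1740000 fragments. Jund was 4.97 FPKM in WT replicate 5, against 2.07 to 2.58 FPKM. Atf3 and Klf4 were 13.4 and 4.20 FPKM in the library labelled WT replicate 2, above 4.79 to 7.01 and 1.50 to 2.07 FPKM in the other WT libraries, and this library also had the highest WT level of macrophage markers.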

How the results depend on the processing

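Across 20 alternatives Fos and Fosb kept their direction in every one, and Atf3 in 19. The number of members called higher was 3 under both other pseudocounts, both other filters, quantile normalization and the robust fit, 4 on rescaling to the same total and with library weights (Jun added), 5 with libraries scaled to CD8 T cell identity genes (Jun and Junb added), 1 with the replicate block (Atf3) and 0 with the macrophage covariate. It ran from 0 to 4 when 1 library was left out, and 0 members were called lower under any alternative. Rescaling to the same total and to the identity genes put the median of all genes at 0.29 and 0.53 log2 units. The differences were then 1.47 and 1.75 for Fos, 1.07 and 1.34 for Fosb and 2.12 and 2.39 for Atf3. That of Batf was -0.30 and -0.03 (limma, adjusted p = 0.588 and 0.935). Relative to the median of all genes, Fos differed by 1.17 and 1.21, Fosb by 0.78 and 0.81 and Atf3 by 1.83 and 1.86. Batf differed from it by -0.59 and -0.57. Subtracting the median largely undoes such a rescaling, so the relative values are no separate check. With the macrophage covariate Atf3 (-0.090), Jund (-0.11), Klf4 (-0.21), Cxcl2 (-0.68), Il1b (-1.19) and Il27ra (0.62) changed sign, and the cause was not tested. Deviations of same-numbered libraries correlated across genes at 0.00, -0.01, -0.07 and -0.15, and those of differently numbered libraries at -0.07 to 0.13. No pairing by replicate number was seen, but so few libraries cannot exclude one.

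Over all genes, 325 higher and 115 lower became 155 and 64 with the 5 FPKM filter (fewer genes tested), 291 and 167 with quantile normalization, 525 and 65 with the same total, 713 and 50 on scaling to the identity genes, 632 and 342 with library weights, 217 and 56 with the replicate block, and 0 and 4 with the macrophage covariate (1119 at an unadjusted p under 0.05). Leaving out 1 library gave 168 to 453 higher and 59 to 186 lower, and the cause was not tested. Fosl1 rested on at most 7.3 estimated fragments in a library, so depth limits what can be said of it.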
